A study of Mus musculus with 2 samples.

Results

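The T cell receptor beta and gamma segments are the V, D, J and C genes of 2 loci on mouse chromosomes 6 and 13. They were taken as every GENCODE M21 gene of a T cell receptor segment type whose symbol begins with Trb, Trg or Tcrg, together with the span of each locus and 50 kb to each side. That gave 54 segments of 53843 annotated genes, 39 in the beta locus (22 V, 2 D, 13 J and 2 C) and 15 in the gamma locus (7 V, 4 J and 4 C). Open chromatin had been measured by DNase-seq, in which DNase I cuts exposed DNA in nuclei, in whole thymus from a pair of female mice, 14 days old, of the hybrid B6CASTF1/J. Such mice are F1 offspring of the strains C57BL/6J and CAST/EiJ. The labels give them as biological replicates 1 and 2 with a shared donor identifier, and name no treated, mutant or control group. They were taken as 2 animals of 1 group. With 1 group of 2 animals no test between animals was possible, and each result below is a count or level given for each replicate.

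The receptor genes of T cells are assembled in the thymus by V(D)J recombination: the RAG1 and RAG2 recombinase cuts at recombination signal sequences beside the V, D and J segments, and the segments are joined. A recombination signal is a heptamer and a nonamer separated by a spacer of 12 or 23 bases, and a signal with the shorter spacer pairs with one with the longer spacer. Assembly of the beta chain joins D to J first and V to DJ afterwards, and is driven by an enhancer, E-beta, between Trbc2 and Trbv31. Trbv31 is the inverted V segment at the far end of the locus. The gamma chain, partner of the delta chain in gamma-delta T cells, is assembled directly from V and J. Because assembly deletes or inverts the DNA between the joined segments, thymus tissue is a mixture of rearranged and unrearranged alleles. In these bulk samples closed chromatin, lower DNA copy number and a smaller number of cells of a type cannot be told apart.

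The sequences that the results below turn on are shown first, from GRCm38, whose primary chromosomes are those of mm10. The D segments stand between a pair of signals, and the peaks at their upstream sides are described further on. Each is printed on the plus strand, its coding strand, with the nonamers and heptamers of both signals in capitals.
Trbd1 with its signals, chr6:41533173-41533251, plus strand: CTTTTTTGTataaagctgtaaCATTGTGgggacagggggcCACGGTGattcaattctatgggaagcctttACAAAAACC
Trbd2 with its signals, chr6:41542135-41542215, plus strand: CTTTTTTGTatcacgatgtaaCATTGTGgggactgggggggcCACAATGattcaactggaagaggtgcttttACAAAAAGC

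The signals of 7 beta V segments lay in a peak in both replicates. They are printed from the heptamer outward along the strand of the segment, with heptamer and nonamer in capitals. The last 2 lines, Trbv13-3 and Trbv21, are signals with no peak in either replicate, shown for comparison of the letters.
Trbv2 signal, chr6:41047996-41048034, plus strand: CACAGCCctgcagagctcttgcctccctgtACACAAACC
Trbv4 signal, chr6:41059887-41059925, plus strand: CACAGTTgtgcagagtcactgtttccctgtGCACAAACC
Trbv5 signal, chr6:41062804-41062842, plus strand: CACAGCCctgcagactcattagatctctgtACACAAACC
Trbv13-2 signal, chr6:41121833-41121871, plus strand: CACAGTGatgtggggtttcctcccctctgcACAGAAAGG
Trbv16 signal, chr6:41152231-41152269, plus strand: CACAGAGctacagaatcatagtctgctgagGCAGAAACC
Trbv19 signal, chr6:41179049-41179087, plus strand: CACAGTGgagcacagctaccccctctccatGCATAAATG
Trbv31 signal, chr6:41557652-41557690, minus strand: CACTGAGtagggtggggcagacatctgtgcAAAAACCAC
Trbv13-3 signal, chr6:41130586-41130624, plus strand: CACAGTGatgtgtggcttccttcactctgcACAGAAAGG
Trbv21 signal, chr6:41203045-41203083, plus strand: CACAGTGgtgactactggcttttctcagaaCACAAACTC

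Of these 9 signals, the exact consensus heptamer CACAGTG stood in Trbv13-2 and Trbv19, which were in peaks, and in Trbv13-3 and Trbv21, which were not. The signals of the paralogues Trbv13-2 and Trbv13-3 both matched the heptamer consensus at 7 of 7 positions and the nonamer consensus ACAAAAACC at 6 of 9 positions. Exact heptamers thus stood on both sides of the division into signals with and without a peak.

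A choice of beta peaks follows, taken for their place at the enhancer, at Trbv31, before Trbd1 and before the Trbv12 pair, on the plus strand of mm10, with the bases of replicate 1 footprints in capitals. A footprint is a short run protected from cutting within open DNA, as called by the authors. The first lies where the E-beta enhancer is known to lie, the next at the start of Trbv31, the next over the signal of Trbv31, and the others upstream of Trbd1, Trbv12-1 and Trbv12-2.
Peak between Trbc2 and Trbv31, chr6:41554381-41554640, plus strand: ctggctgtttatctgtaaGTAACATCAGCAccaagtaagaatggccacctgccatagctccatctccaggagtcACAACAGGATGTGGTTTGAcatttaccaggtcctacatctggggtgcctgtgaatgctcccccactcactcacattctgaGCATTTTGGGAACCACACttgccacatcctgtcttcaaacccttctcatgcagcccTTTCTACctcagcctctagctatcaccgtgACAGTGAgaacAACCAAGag
Peak at the Trbv31 start, chr6:41558381-41558580, plus strand: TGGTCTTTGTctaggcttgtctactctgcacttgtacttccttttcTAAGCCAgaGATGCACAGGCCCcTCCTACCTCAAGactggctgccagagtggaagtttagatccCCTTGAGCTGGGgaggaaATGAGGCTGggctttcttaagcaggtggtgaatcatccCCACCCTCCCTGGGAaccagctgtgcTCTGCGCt
Peak at the Trbv31 signal, chr6:41557561-41557780, plus strand: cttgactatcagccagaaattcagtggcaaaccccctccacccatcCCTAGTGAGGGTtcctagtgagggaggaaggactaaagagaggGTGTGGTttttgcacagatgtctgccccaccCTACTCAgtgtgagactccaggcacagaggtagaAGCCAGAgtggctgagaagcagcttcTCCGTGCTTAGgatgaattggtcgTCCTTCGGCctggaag
Peak upstream of Trbd1, chr6:41532921-41533180, plus strand: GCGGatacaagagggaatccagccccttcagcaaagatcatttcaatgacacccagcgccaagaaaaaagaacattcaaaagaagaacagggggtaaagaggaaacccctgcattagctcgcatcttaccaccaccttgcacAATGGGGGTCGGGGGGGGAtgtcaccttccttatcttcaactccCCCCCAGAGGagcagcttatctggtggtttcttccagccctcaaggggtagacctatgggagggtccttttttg
Peak upstream of Trbv12-1, chr6:41112981-41113160, plus strand: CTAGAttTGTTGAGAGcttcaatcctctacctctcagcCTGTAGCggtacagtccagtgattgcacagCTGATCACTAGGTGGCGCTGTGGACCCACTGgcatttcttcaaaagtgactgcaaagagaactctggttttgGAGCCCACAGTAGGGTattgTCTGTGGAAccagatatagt
Peak upstream of Trbv12-2, chr6:41118301-41118480, plus strand: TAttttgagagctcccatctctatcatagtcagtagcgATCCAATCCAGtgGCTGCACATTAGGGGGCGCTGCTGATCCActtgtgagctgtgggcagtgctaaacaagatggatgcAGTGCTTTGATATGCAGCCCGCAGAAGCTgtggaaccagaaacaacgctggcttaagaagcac

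In the gamma locus, peaks are few. The peak upstream of Tcrg-V7 was the strongest within 500 bp of the start of a gamma segment, and a pair of peaks past Tcrg-C4 shared a run of letters with the Trbv12-1 peak.
Peak upstream of Tcrg-V7, chr13:19177741-19177900, plus strand: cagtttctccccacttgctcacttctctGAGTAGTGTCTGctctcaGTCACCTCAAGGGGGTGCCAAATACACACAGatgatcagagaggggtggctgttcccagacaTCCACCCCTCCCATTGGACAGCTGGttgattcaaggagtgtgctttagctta
First peak past Tcrg-C4, chr13:19364561-19364740, plus strand: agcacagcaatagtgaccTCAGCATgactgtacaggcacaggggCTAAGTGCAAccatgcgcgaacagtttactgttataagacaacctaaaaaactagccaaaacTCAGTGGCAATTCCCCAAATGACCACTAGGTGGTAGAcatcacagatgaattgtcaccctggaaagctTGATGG
Second peak past Tcrg-C4, chr13:19365701-19365900, plus strand: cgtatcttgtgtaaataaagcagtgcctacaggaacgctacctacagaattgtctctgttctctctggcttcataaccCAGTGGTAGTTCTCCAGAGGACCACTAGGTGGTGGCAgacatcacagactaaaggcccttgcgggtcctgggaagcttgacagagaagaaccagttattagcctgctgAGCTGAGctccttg

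Peaks were called in each replicate on its own. The strength of a peak is the authors' value for it in their longer list, and its percentile is the share of that replicate's peaks with a lower strength. Replicate 1 had 96992 peaks and replicate 2 had 107968 on chromosomes 1 to 19 and X. Since the sequencing depth is unknown, strengths carry no counting interval. As a check of the tissue, all 7 thymocyte markers (Cd3e, Cd3d, Cd4, Cd8a, Ptcra, Rag1 and Lck) had a peak within 500 bp of an annotated start in both replicates, against 58.6% of protein-coding genes. Of 3 thymic epithelium markers only Ccl25 did, Foxn1 and Psmb11 did not, and none of the 3 B cell, 3 hepatocyte and 3 pancreatic acinar markers did. Of 5 markers of gamma-delta T cells, Blk, Zbtb16, Etv5 and Maf did and Sox13 did not. Of 28 genes of receptor assembly and its control, 27 had such a peak in both replicates. They included the recombinase genes Rag1 and Rag2, the terminal transferase gene Dntt, which adds bases at the joints, the pre-T receptor gene Ptcra, and Il7r, the receptor gene through which interleukin 7 acts on the gamma locus. The exception was Sox13.

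In the beta locus, 24 of the 39 segments had a peak within 500 bp of the segment start in both replicates, where 28.9% of all annotated genes and 55.1% of protein-coding genes did. These were 14 of 22 V segments (63.6%, Wilson 95% interval 43.0 to 80.3%), both D segments, 6 of 13 J segments and both C segments. The interval covers counting error only, and neighbouring segments can share a peak: the 24 segments lay beside 20 distinct peaks in replicate 1. In the alpha and delta locus, counted the same way, 43.5% of 115 V segments and 11.3% of 53 J segments had such a peak, and in the immunoglobulin heavy chain locus, which B cells assemble, 33.6% of 113 V segments. In the gamma locus it was 3 of 15 segments, all of them V. The differences between these loci were not tested, because the design has no replicate beyond the 2 animals and segments are not replicates.

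**Figure D1:**
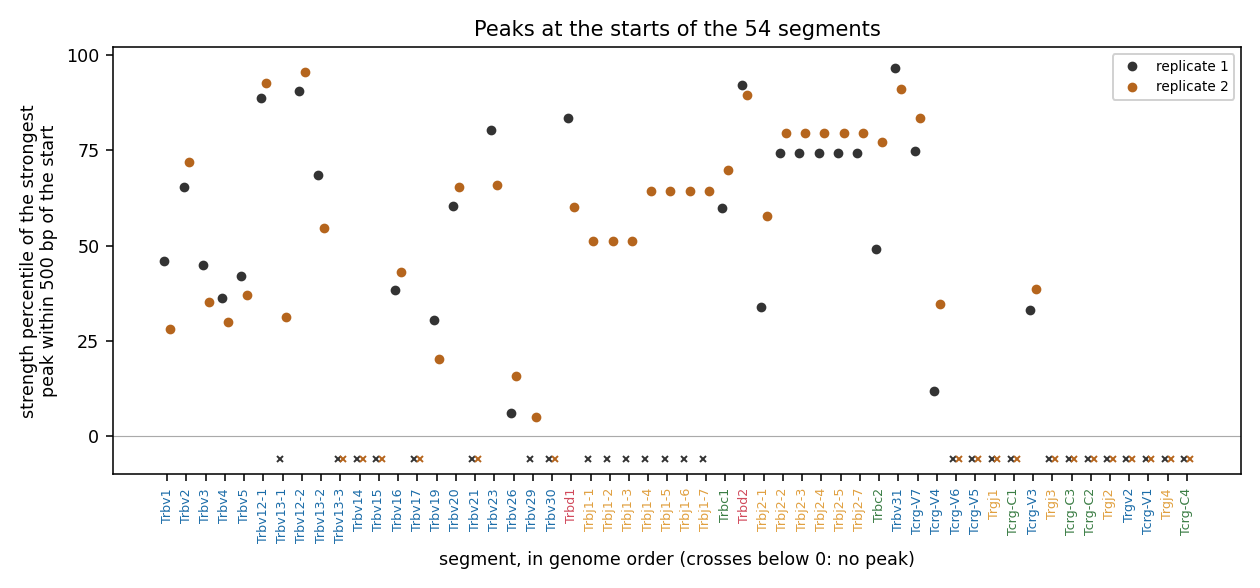
Strength percentile of the strongest peak within 500 bp of the start of each of the 54 segments (vertical axis, percentile among the replicate's own peaks) in genome order (horizontal axis, label colours giving V, D, J and C), one point per replicate and a cross where there was no peak. The points of Trbv31, Trbd2 and the Trbv12 segments lie near the top in both replicates, while all J and C segments of the gamma locus show only crosses.

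The V segments are the gene's stock of antigen-binding pieces, each with a promoter of its own and a signal at its 3′ end. The V segments with a peak in both replicates were Trbv1, Trbv2, Trbv3, Trbv4, Trbv5, Trbv12-1, Trbv12-2, Trbv13-2, Trbv16, Trbv19, Trbv20, Trbv23, Trbv26 and Trbv31. Trbv13-1 and Trbv29 had one in replicate 2 only. Trbv13-3, Trbv14, Trbv15, Trbv17, Trbv21 and Trbv30 had none in either replicate. The windows around the starts of these 6 held from 95.6% to 100% of unique 32-base words, and those around the 14 with a peak in both replicates from 90.4% to 100%. Unique words are those found once in the genome and stand here for how well reads can be placed. Trbv30, the V segment nearest to the D, J and C cluster on its upstream side, was thus among the V segments without a peak at the start.

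Peaks at V segments lay mostly at either end of the segment. At the annotated start, which is the first base of the leader, 45.5% of the 22 V segments were inside a peak in each replicate. At 250 bp along the segment 0% were in replicate 1 and 13.6% in replicate 2, and at 500 bp the share was 31.8% in both. Measured from the 3′ end, where the signal begins, 50% were in a peak 50 bp past the end in replicate 1 and 36.4% in replicate 2, while 100 bp before the end the shares were 0% and 22.7%. The 115 V segments of the alpha and delta locus likewise showed a rise at both ends, with 37.4% and 33.9% in a peak 100 bp before the start and 33.9% and 27.8% at the 3′ end.

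**Figure D2:**
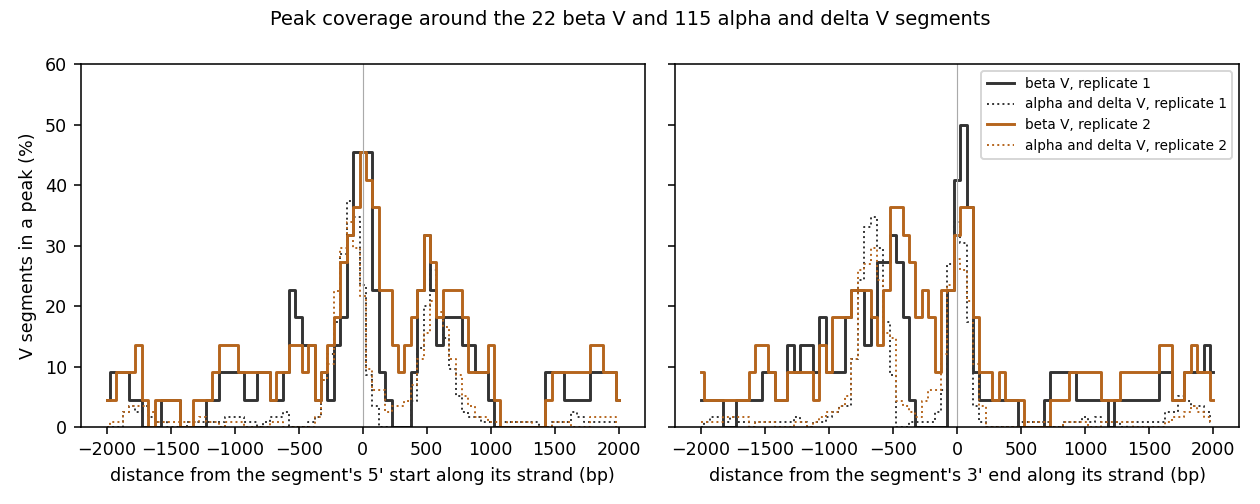
Share of V segments inside a peak (vertical axis, percent) by distance along the segment's strand from its start (left) and from its 3′ end (right), for 22 beta V segments (solid lines) and 115 alpha and delta V segments (dotted lines) in each replicate. Both loci show a rise at the start and another at the 3′ end, and in replicate 1 no beta V segment is in a peak 250 bp past its start.

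Because of this form, the window of 500 bp held start peaks for some segments and peaks over the signal for others. Within 100 bp of the start, 9 of the 22 beta V segments had a peak in both replicates (Trbv1, Trbv3, Trbv5, Trbv12-1, Trbv16, Trbv19, Trbv20, Trbv23 and Trbv31), against 31.3% of alpha and delta V segments and 23.2% of all annotated genes. The signal was in a peak in both replicates for 7 (Trbv2, Trbv4, Trbv5, Trbv13-2, Trbv16, Trbv19 and Trbv31). Only Trbv5, Trbv16, Trbv19 and Trbv31 had both, each time as separate peaks. In replicate 1 the 22 V segments fell into 7 with a peak at each end, 4 with a peak at the start alone, 4 with one over the signal alone and 7 with neither, and in replicate 2 into 6, 6, 3 and 7. Trbv4 showed a peak over its signal and none within 100 bp of the start in either replicate. Trbv20 showed the reverse, with start peaks of 1.07 (replicate 1) and 1.01 (replicate 2) and no peak over the signal in either.

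The strongest V segment in replicate 1 was Trbv31, while in replicate 2 the Trbv12 segments described next were higher. Its start peak reached 12.3 in replicate 1 (percentile 96.6) and 3.66 in replicate 2 (percentile 91.2). A separate peak covered the whole of its signal, with a strength of 5.37 (percentile 90.2) and 2.43 (percentile 85.5). The start peak held 8 footprints in replicate 1 and 4 in replicate 2, and 85 of its 200 printed bases are in capitals. Trbv31 was the only V segment of either locus whose 762 bases were listed from end to end in both replicates. Listed bases are those to which the authors gave a false discovery rate under 0.05.

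Trbv12-1 and Trbv12-2 are close neighbours of one subfamily. The strongest peak near Trbv12-1 was centred 479 bp upstream of its start, at 4.60 in replicate 1 (percentile 88.6) and 4.16 in replicate 2 (percentile 92.7). At Trbv12-2 the corresponding peak was centred 460 bp upstream in replicate 1 and 480 bp upstream in replicate 2, with strengths of 5.50 (percentile 90.4) and 5.54 (percentile 95.5). These 2 are not start peaks. At the Trbv12-1 start itself the peak had 1.33 in replicate 1 and 0.869 in replicate 2, and at the Trbv12-2 start a peak of 0.966 was called in replicate 1 and none in replicate 2. In replicate 2 all 514 bases of Trbv12-2 were nonetheless listed, so the absence of a peak there is an absence from the peak list and not of listed bases.

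Both upstream peaks held a run of the form AGGNGGCGC, which is part of the motif of the insulator protein CTCF. The Trbv12-1 peak had AGGTGGCGC at bases 78 to 86 and the Trbv12-2 peak AGGGGGCGC at bases 62 to 70, counted from the first base printed, and each lay in a footprint in both replicates. Over the genome, 4.03% of replicate 1 peaks and 4.21% of replicate 2 peaks held this string on either strand in the central 200 bp. The string was chosen after the sequences were seen. Fuller CTCF strings, searched on both strands, occurred in 1 of 88 beta peaks in replicate 1 and 1 of 99 in replicate 2, against 3.83% and 4.50% of all peaks. A match of letters is not a measured binding site.

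The other open V segments were weaker. Trbv23 had a start peak of 2.48 in replicate 1 (percentile 80.4) and 1.02 in replicate 2 (percentile 65.8). Trbv13-2 had a peak over its signal of 1.41 and 0.731, and Trbv19 had one of 1.14 and 0.910, above the 0.504 and 0.322 at its own start. At Trbv2 the strongest peak, centred 559 bp upstream in replicate 1, had 1.27 and 1.28. The start peaks of Trbv1 (0.722 and 0.386), Trbv5 (0.421 and 0.472) and Trbv16 (0.602 and 0.547) were all below the 50th percentile of their replicate. Trbv3 had 0.374 and 0.363 at its start, and Trbv4 had 0.577 and 0.403 over its signal. Trbv26 counts as open only because different peaks fell in the window: in replicate 1 a peak of 0.249 over the signal, in replicate 2 a peak of 0.288 at the start. Away from the segments, the V region also held a peak at the start of the long noncoding RNA gene 5830405F06Rik, which runs across Trbv4 and Trbv5, with strengths of 1.26 and 2.74.

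Sequence features were counted in the V segments with and without a peak. An exact CACAGTG heptamer was present at 4 of the 14 segments with a peak within 500 bp in both replicates and at 4 of the 8 others. The median number of nonamer positions matching the consensus was 6.5 in the open and 6 in the other segments, with ranges of 2 to 9 and 4 to 7. A cyclic AMP response element-like string (TGATGTCA, TGACATCA, TGACGTCA or TGATATCA on either strand), a known element of V-beta promoters, stood within 250 bp upstream of 4 of the 14 and 4 of the 8. This string too was chosen with results of these data known. These counts are a description and were not tested. Trbv3 is the one beta segment whose annotated 3′ end is not followed by CAC, so the bases read there may not be its signal.

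**Figure D3:**
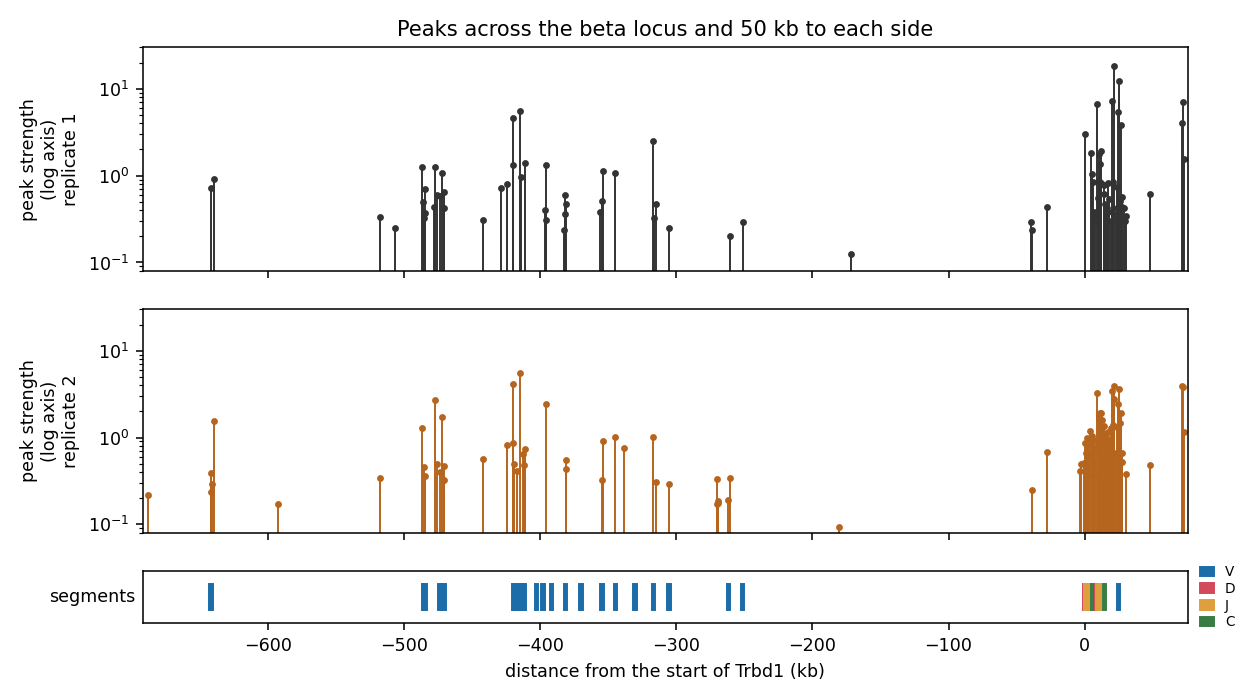
Peaks of the beta locus and 50 kb to each side in replicate 1 (top) and replicate 2 (middle), as peak strength on a log axis against distance from the start of Trbd1 in kb, with the segments below coloured by type. Peaks stand in clusters at the V segments, are nearly absent from the interval between Trbv30 and Trbd1, and stand closest together from Trbd1 to Trbv31.

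Along the beta locus the V region was open only at points, the next interval was almost without peaks and the last stretch was open over long runs. From Trbv2 to Trbv30 (235 kb), 35 peaks in replicate 1 and 34 in replicate 2 covered 2.61% and 2.99% of the bases, against 0.725% and 0.945% of the genome. The 155 kb between Trbv1 and Trbv2 held 5 peaks in each replicate, covering 0.425% and 0.574%. The 251 kb from Trbv30 to 500 bp before Trbd1, which hold a cluster of trypsinogen genes expressed in the pancreas, had 5 and 6 peaks that covered 0.370% and 0.447%. None of these was stronger than 0.431 in replicate 1 or 0.679 in replicate 2. Only 60.8% of the 32-base words of this interval are unique, and the part of repeats in its low coverage was not tested. Inside the beta locus lie 14 protein-coding genes, among them Try4, Try5, Try10, Prss1, Prss2 and Prss3. None had a peak over its body in either replicate, where 36.1% of all annotated genes had such a peak in both. None had a peak within 500 bp of its start in both replicates, where 55.1% of protein-coding genes did. Only 1700074P13Rik had a start peak in replicate 2 alone, at 0.173. Unique words are few in some of these genes, as in Prss3 (33.0%).

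The 25.8 kb from 500 bp before Trbd1 to the start of Trbv31 held 32 peaks in replicate 1 and 42 in replicate 2. Peaks covered 27.0% of its bases in replicate 1 and 65.8% in replicate 2. Listed bases made up 46.4% and 89.6%. The chromosomes were tiled with 102265 windows of the same length. Of these, 11 windows in replicate 1 and 0 in replicate 2 had as high a share of bases in peaks, and the 99th percentile was 7.27% and 9.55%. The windows lay on a fixed grid while the stretch was bounded at segments, so its rank is a description and not a test. The stretch averaged 3.0 footprints per peak in replicate 1 and 5.0 in replicate 2, against 2.40 and 2.55 over all peaks. A footprint was counted for every peak it overlapped, and the stretch held 101 and 189 footprints. Replicate 2 peaks often overlapped here, and their median width was 410 bp, against 200 bp over the genome. The part of peak width and overlap in these means was not tested.

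**Figure D4:**
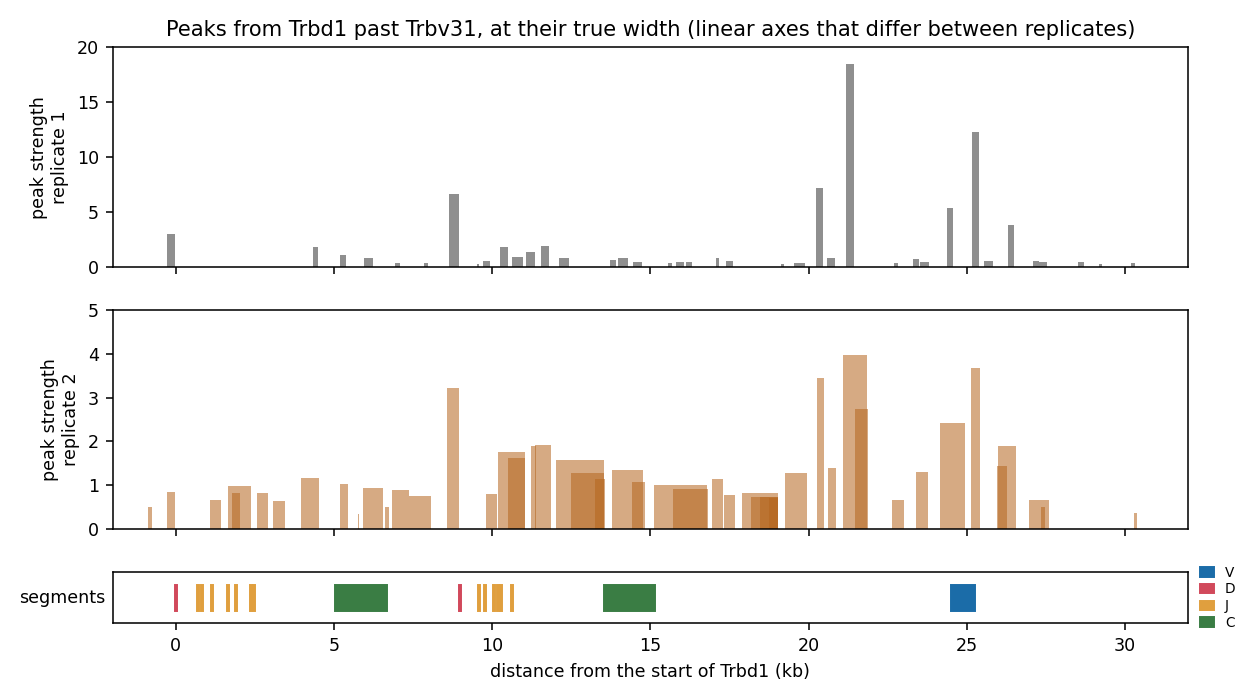
Peaks from Trbd1 past Trbv31 drawn at their true width (horizontal axis, kb from the start of Trbd1) and strength (vertical axis, linear, with a different range in each replicate), with the segments below. Replicate 1 shows separate narrow peaks and none at the Trbj1 segments, while the wider peaks of replicate 2 run into one another over most of the stretch.

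Within this stretch the replicates differed in form. The median peak width was 230 bp in replicate 1 and 410 bp in replicate 2. No peak of replicate 1 was wider than 400 bp and 21 of 42 of replicate 2 were, the widest of 1680 bp. Over the genome, 2.78% and 10.1% of peaks were that wide, so wide peaks were more frequent in replicate 2 over the genome as well. In replicate 2, 20 of the 42 peaks overlapped another peak of the same list, against 5.47% of all its peaks. The part of depth or of library quality in this difference was not tested.

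The D segments are the first to be joined, each to a J segment. Trbd2 had the stronger peak, chr6:41541821-41542140 in replicate 1, at 6.67 (percentile 92.2) in replicate 1 and 3.22 (percentile 89.6) in replicate 2. The peak upstream of Trbd1 had the same borders in both replicates, with strengths of 3.03 (percentile 83.5) and 0.858 (percentile 60.1). Both peaks lay on the upstream side, where the promoter of Trbd1 is known to lie, and ended in the upstream signal. At Trbd1 they reached 8 of the 28 bases of the 5′ signal in each replicate, and at Trbd2 they reached 6 bases in replicate 1 and 26 in replicate 2. Neither D segment itself nor its 3′ signal was inside a peak in either replicate. The 12 bases of Trbd1 and the 14 bases of Trbd2 were all listed in both.

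The J segments stand in 2 groups, one after each D segment. None of the 7 segments of the Trbj1 group had a peak within 500 bp or a listed base in replicate 1. In replicate 2 all 7 had a peak within 500 bp, 4 (Trbj1-3, Trbj1-4, Trbj1-5 and Trbj1-6) had one over the body, and 5 were listed in full. Of all annotated genes, 30.6% had a peak within 500 bp of the start in replicate 1 and 31.3% in replicate 2. Trbj1-1 and Trbj1-2, the 2 closest to Trbd1, had no listed base in either replicate. The Trbj1 group was therefore the largest set of beta segments on which the animals disagreed.

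All 6 Trbj2 segments had a peak within 500 bp in both replicates. The strongest peak in that window was the same for Trbj2-2, Trbj2-3, Trbj2-4, Trbj2-5 and Trbj2-7, so these 5 are not independent. It had 1.80 in replicate 1 and 1.76 in replicate 2. Of these 5 bodies it overlapped only Trbj2-5 in replicate 1, and Trbj2-4, Trbj2-5 and Trbj2-7 in replicate 2. The strongest peak in the window of Trbj2-1 had 0.545 and 0.800. In both replicates it lay outside the Trbj2-1 body and overlapped that of Trbj2-2. A weaker peak touched the Trbj2-1 body in replicate 1, and none did in replicate 2. The body lay in a peak in both replicates for Trbj2-2, Trbj2-5 and Trbj2-7, and 5 of the 6 segments in replicate 1 and all 6 in replicate 2 were listed in full. Of the 13 J signals of the locus, only that of Trbj2-5 was in a peak in both replicates. How often each J segment is used in joined chains was not measured here.

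The C segments encode the constant part of the chain. Trbc1 had a peak of 1.05 in replicate 1 and 1.17 in replicate 2 within 500 bp of its start, taking the strongest peak in that window. The peak of replicate 1 lay in the gene and overlapped a peak of 1.04 in replicate 2, and the 1.17 of replicate 2 belonged to a further peak before the gene. Trbc2 had 0.784 and 1.58. The bodies of both lay in a peak in both replicates. The windows around their starts held only 66.4% unique words. The pair is known to be nearly identical, so values at Trbc1 and Trbc2 are uncertain.

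Past Trbc2 stood the strongest peak of the beta locus and its flanks in replicate 1, at 18.5 (percentile 98.6). The overlapping peak of replicate 2 was wider (740 bp) and had a strength of 3.97 (percentile 92.1). It was centred 6158 bp past the end of Trbc2 and 3942 bp from the start of Trbv31 in replicate 1. Another peak, chr6:41553441-41553640, lay 5188 bp past Trbc2, with strengths of 7.21 and 3.45. In the printed sequence of the first, an ETS string, AGGATG, at bases 80 to 85 overlapped a RUNX string, TGTGGT, at bases 84 to 89. This pair lay in a footprint in replicate 1 and in none in replicate 2. Another TGTGGT, on the minus strand at bases 166 to 171, touched a footprint in both replicates, and a minus-strand AGGATG at bases 179 to 184 touched none. ETS and RUNX factors are known to act at E-beta. Over all peaks, RUNX strings (TGTGGT or TGCGGT) stood in the central 200 bp of 23.1% in replicate 1 and 21.1% in replicate 2, and ETS strings (AGGAAG or AGGATG, and the same with C as first letter) in 51.2% and 46.7%, so either string alone is common.

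Over the whole stretch, GATA strings (AGATAA or TGATAA, both strands) stood in 5 of the 31 peaks centred in it in replicate 1 (16.1%) and 14 of 41 in replicate 2 (34.1%), where all peaks had 9.99% and 11.6%. RUNX strings stood in 16.1% and 17.1%, against 23.1% and 21.1% of all peaks, and ETS strings in 41.9% and 29.3%, against 51.2% and 46.7%. E-box strings (CAGCTG or CAGGTG, both strands), to which the E proteins bind, stood in 19.4% and 14.6%, against 39.5% and 33.3% of all peaks. The peaks of replicate 2 overlap one another here, so 1 site can be counted more than once. Of the 8 strongest peaks of the beta span by mean percentile, 2 were in its flank and not at a segment: chr6:41605321-41605520 at the start of Ephb6, an ephrin receptor gene, with 7.02 and 3.83, and chr6:41604441-41604640 upstream of it, with 3.99 and 3.92.

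In both replicates together, 10 of the 39 beta signals lay in a peak, 7 at V segments, 2 at the 5′ sides of the D segments and 1 at Trbj2-5. Of windows of 40 bp over the genome, 0.559% overlapped a peak in both replicates. Replicate 1 alone had 16 signals in a peak and replicate 2 alone 18. Of the gamma locus, 0 of 11 signals lay in a peak in either replicate. Among words overlapping the signal, 10% were unique at Tcrg-V1, 44.3% at Trgv2 and 65.7% at Tcrg-V3. At Trgj1, Trgj2 and Trgj3 the shares were 91.5%, 83.1% and 88.1%, and at the other gamma signals 100%. The part of read placement here was not tested. The body of the segment lay in a peak in both replicates for 16 of 39 beta segments (11 V, 3 J and 2 C) and 0 of 15 gamma segments, against 36.1% of all annotated genes, whose bodies are mostly far longer. At least 1 listed base stood in the body of 23 beta segments and 1 gamma segment (Tcrg-V3) in both replicates, and of 38.2% of all annotated genes.

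**Figure D5:**
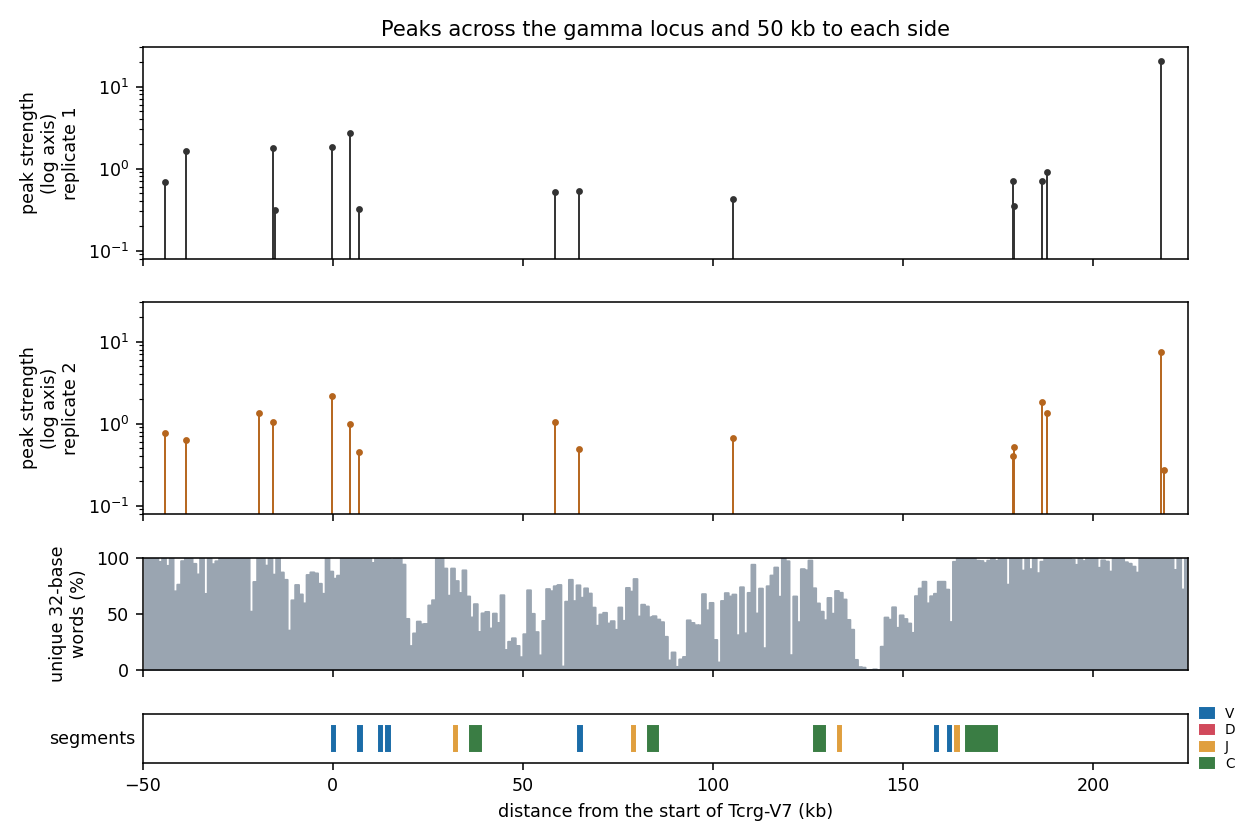
Peaks of the gamma locus and 50 kb to each side in both replicates (peak strength, log axis), with the share of unique 32-base words per kb and the segments below, against distance from the start of Tcrg-V7 in kb. Few peaks stand inside the locus, the strongest is at the start of Stard3nl in the flank, and unique words are fewest between the third J and the last V segments.

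The gamma locus showed few peaks. Its 174.7 kb held 5 peaks in each replicate, 2.86 per 100 kb, below the 3.79 and 4.22 of the genome. Peaks covered 0.468% and 0.658% of its bases, against 0.725% and 0.945% of the genome. Only 59.9% of the locus consists of unique 32-base words, and the part of read placement in these low values was not tested. The span with 50 kb to each side held 15 and 16 peaks, 5.46 and 5.82 per 100 kb. They covered 0.947% and 1.26% of its bases, so with the flanks both measures were above those of the genome. None of these differences from the genome was tested. The 14.7 kb from Tcrg-V7 to Tcrg-V5, with 97.4% unique words, held 2 of the 5 peaks of the locus in each replicate. In the 12.8 kb from Tcrg-V1 to the end of Tcrg-C4, 94.1% of words are unique and no peak and no listed base was found in either replicate. The 24.3 kb from Tcrg-V5 to Tcrg-C1 and the 32.4 kb from Tcrg-C2 to Tcrg-V1 also held no peak and no listed base in either, with 68.3% and 44.7% unique words.

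Of the gamma V segments, Tcrg-V7, Tcrg-V4 and Tcrg-V3 had a peak within 500 bp of the start in both replicates. Tcrg-V7 was the strongest, at 1.84 in replicate 1 (percentile 74.8) and 2.16 in replicate 2 (percentile 83.5), centred 203 bp and 213 bp upstream. Tcrg-V4 had 0.317 and 0.449, and Tcrg-V3 had 0.535 and 0.489. Tcrg-V6, Tcrg-V5, Trgv2 and Tcrg-V1 had none. Tcrg-V5 and Tcrg-V6, whose chains are made by the first gamma-delta cells of the fetal thymus, lay in wholly unique sequence (100% of words). Unique words made up 81.2% of the start window of Trgv2 and 54.2% of that of Tcrg-V1. None of the 4 J and 4 C segments had a peak within 500 bp of the start, over the body or, for J, over the signal. Their start windows held 80.5% (Trgj1), 72.0% (Trgj2), 73.5% (Trgj3), 52.9% (Tcrg-C1), 45.0% (Tcrg-C2) and 54.1% (Tcrg-C3) unique words. Trgj4 and Tcrg-C4 had 100%. The part of read placement in these absences was not tested. The nearest peak to Trgj1 was centred 25446 bp away in replicate 1 and 25316 bp away in replicate 2.

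All 11 gamma signals begin with CAC, and 4 hold the exact heptamer (Tcrg-V5, Trgj1, Trgj2 and Trgj3), against 9 of 39 in the beta locus. Those of Tcrg-V6, Tcrg-V3, Trgv2 and Tcrg-V1 matched the heptamer at 4 of 7 bases, and that of Tcrg-V7 matched the nonamer at 3 of 9. The signals of Trgj1, Trgj2 and Trgj3 are identical letter for letter, as are those of Trgv2 and Tcrg-V1, and they are shown for that identity.
Trgj1 signal, chr13:19210315-19210342, minus strand: CACAGTGctcacagcttctACAAAAATC
Trgj2 signal, chr13:19311305-19311332, plus strand: CACAGTGctcacagcttctACAAAAATC
Trgj3 signal, chr13:19257089-19257116, minus strand: CACAGTGctcacagcttctACAAAAATC
Trgv2 signal, chr13:19336534-19336572, minus strand: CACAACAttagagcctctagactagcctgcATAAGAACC
Tcrg-V1 signal, chr13:19340455-19340493, plus strand: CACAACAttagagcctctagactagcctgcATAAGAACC

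Most other gamma peaks lay outside segments. A peak 2503 bp upstream of Tcrg-V4, chr13:19182381-19182560, reached 2.71 in replicate 1 and 0.985 in replicate 2. Past Tcrg-C1, the peak chr13:19236461-19236620 had 0.519 and 1.04, centred 6304 bp upstream of Tcrg-V3 in replicate 1, and the peak chr13:19283261-19283437 between Tcrg-C3 and Tcrg-C2 had 0.426 and 0.662. Past Tcrg-C4, a peak centred 4184 bp from its end had 0.696 and 0.403. In the upstream flank, peaks centred 15703 bp, 38713 bp and 43993 bp before Tcrg-V7 in replicate 1 had 1.79 and 1.05, 1.64 and 0.639, and 0.680 and 0.760. The strongest peak of the span by far was that of the Stard3nl start, chr13:19395761-19395980, with 20.3 (percentile 98.9) and 7.48 (percentile 97.9), which belongs to a gene outside the receptor locus that encodes a late endosomal protein.

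The pair of peaks 11894 bp and 13044 bp past Tcrg-C4 had strengths of 0.712 and 1.85, and 0.904 and 1.36. Both hold the run CACTAGGTGG, at bases 130 to 139 and 101 to 110 of the printed sequences, and the Trbv12-1 peak holds it at bases 74 to 83. In the Trbv12-1 peak it overlaps the AGGTGGCGC at bases 78 to 86 described above, so the 2 strings mark 1 site there. In each of these 3 peaks the run touched a footprint in both replicates. On either strand, 0.726% of all replicate 1 peaks and 0.839% of replicate 2 peaks held it in the central 200 bp. It was the longest run inside replicate 1 footprints that at least 3 of the peaks examined for sequence shared, a rule set after the letters had been read. RUNX strings were found in 0 of 15 and 0 of 16 peaks of the gamma span, where all peaks had 23.1% and 21.1%. ETS strings stood in 11 of 15 (73.3%) and 11 of 16 (68.8%), where all peaks had 51.2% and 46.7%. These counts take in the 50 kb flanks, and only 5 of the peaks in each replicate lay in the locus itself. The differences from all peaks were not tested.

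The share of peaks found in both replicates was near the genome's in the beta span and higher in the gamma span, where it rests on few peaks. In the beta span, 77.3% of the 88 peaks of replicate 1 (67.5 to 84.8%, Wilson 95% interval) touched one of replicate 2, and 64.6% of the 99 of replicate 2 (54.8 to 73.4%) touched one of replicate 1, against 75.3% and 66.4% of all peaks. In the gamma span, 14 of 15 (93.3%, 70.2 to 98.8%) and 14 of 16 (87.5%, 64 to 96.5%) did, and the difference from the genome was not tested. Every count above that requires a peak in both replicates therefore leaves out peaks seen in 1 animal, of which the Trbj1 group is the largest example.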

How the data were processed

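The data were DNase-seq of the thymus of 2 mice of 1 group. According to the listing the authors deposited, each sample's peaks, footprints and false discovery rates came from its reads aligned to mm10, without pooling of replicates. How the reads were aligned, peaks and footprints called, and CAST/EiJ reads mapped is unknown here. The peak strength is the authors' deposited signal per peak. Within a replicate every strength equalled a whole number of steps (0.00519 for replicate 1 and 0.00576 for replicate 2, tolerance 0.05 steps), but neither the scaling factor nor the depth is known. Strengths were therefore ranked within a replicate. In the deposited tracks the authors give q-values (false discovery rates, a form of p-value) for runs of bases and list only those under 0.05. Footprint files carry a constant in that place, which was left out.

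The longer of the authors' 2 peak lists was used. A segment was counted when a peak overlapped, by at least 1 bp, the 500 bp on either side of its start, its body or its recombination signal (39 bp with the 23-base spacer, 28 bp with the 12-base spacer) in both replicates. V starts in GENCODE M21 are the starts of the leader. Motifs were searched on both strands in the central 200 bp of peaks. The text names every segment with a peak at its start, body or signal in both replicates, the 8 strongest peaks of each span by mean percentile, and the genes beside them. Segments, lists and strings were chosen with earlier results of these data known, and the 100 bp start window for V segments was added after values were seen. Intervals are 95% Wilson intervals and cover counting error only. The helper functions were tested on simulated data. The alternatives tried were the shorter list, other windows, overlaps and flanks, a limit of 0.001, added pseudogenes and each replicate alone. Python 3.11.15 was used with numpy 2.4.6, pandas 2.3.3, scipy 1.17.1 and matplotlib 3.10.9.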

Additional observations from a re-analysis of the deposited data

How the results depend on the processing

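Of 76 alternative values over 20 counts and levels, 57 stayed within 1.5 times the reported count or within 1 SD of the replicate mean, and 19 did not. For levels, either of 2 replicates alone always lies within 1 SD of their mean. Those alternatives could not leave the range, so they say nothing of stability. In the beta D, J and C cluster the share of bases in peaks was 24.8% in replicate 1 and 62.6% in replicate 2, and both were counted as within it. The counts of segments with a peak within 500 bp of the start (24 beta, 3 gamma) stayed within that range under each of these alternatives. The gamma count was at its edge, 2, with the shorter list. The 100 bp window was not among these alternatives. With it, 9 of 22 beta V segments had a start peak in both replicates, in place of 14. The 16 beta segments with a peak over the body fell to 3 when at least 50% of the body had to lie in peaks. The 10 beta signals in a peak became 5 with the shorter list, 16 with 100 bp added to each side, and from 16 to 18 with 1 replicate alone. Beta segments with a listed base fell from 23 to 15, and gamma segments from 1 to 0, at a limit of 0.001, and gamma segments with a listed base numbered from 1 to 3 with 1 replicate alone. The 0 gamma segments with a peak over the body became 1 in each replicate alone. As means of the replicates, the shorter list lowered the share of bases in peaks from 1.96% to 0.980% in the beta V array, from 2.89% to 1.22% in the gamma V array, from 0.392% to 0.289% in the gamma J and C clusters and from 1.74% to 1.37% in the rest of the gamma span. A reciprocal overlap of 50% lowered the share of peaks shared between replicates from 71.0% to 40.8% (beta) and from 90.4% to 77.5% (gamma), and the shorter list lowered the gamma share to 81.2%. Without flanks the gamma span held 5 peaks in place of 15.5. With all footprints of the span, gamma footprints per peak were 2.77 in place of 2.42. The causes of these shifts were not tested beyond what each setting removes or adds. Adding pseudogenes gave 26 beta segments with a peak near the start, among them Trbv24 and Trbj2-6. No paired analysis was possible because the design has 1 group. The unknown depth limits every absence of a peak to an absence from these lists.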
